A study of Mus musculus with 3 samples.

Results

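Expression in blood progenitors hemizygous for a DNMT3B7 transgene was compared with that in wild-type (WT) progenitors, with 1 RNA sequencing library of each. With small RNA genes left out, the tables list 33130 gene identifiers, of which the comparison covered 1439. These genes had an estimate marked OK and lay on 10 chromosome segments, each up to a set last gene such as Morc3 on chromosome 16, or were among the 13 mRNAs of the mitochondrial genome. Outside the segments the deposited values could not be relied on, and Eef1a1, a translation elongation factor that every cell needs, was listed at 0 in all 3 libraries. Of the genes covered, 825 lay on chromosome 16, 158 on chromosome 19 and 149 on chromosome 8, and each of the other chromosomes gave between 17 and 56. A value of at least 1 in the WT or the hemizygous library was reached by 944 genes, which are called measured below. Values are deposited FPKM, that is fragments per length of transcript and per depth of library, divided by 1 factor common to all libraries.

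The cells were lineage-negative, Sca1+ and c-Kit+ (LSK) cells of the fetal liver of C57Bl/6 embryos at E14.5, labelled WT, hemizygous DNMT3B7 or homozygous DNMT3B7. Each library was made from the RNA of a pool of cells of 4 to 5 embryos, so embryo-to-embryo spread was not measured, no test was possible, and each difference below is one between 2 libraries. The promoter of the transgene is not given in the sources used here, and its expression was not analysed here. The homozygous library is given beside the others as a description, and its ratio to WT shares the WT library with the hemizygous one.

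LSK cells hold the blood stem cells and multipotent progenitors, and in the fetal liver at this stage they expand and feed all blood lineages. DNMT3B is one of the enzymes that place new methyl groups on cytosines of CG dinucleotides, a mark that at CG-rich promoters usually goes with silence of the gene. DNMT3B7 is a truncated form of the enzyme, found in human tumours, that lacks the catalytic part.

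Markers of the sorted cells were checked first, and they lay outside the segments. Kit, the receptor c-Kit, was listed at 0 in WT, 0.73 in hemizygous and 0.41 in homozygous cells, and Ly6a, which encodes Sca1, at 0 in all of them. Ptprc, the pan-leukocyte phosphatase CD45, was at 2.27, 3.41 and 1.15 in the same order. These values do not check the label of the cells. Runx1, a transcription factor of blood stem cells on chromosome 16, was at 152 in WT and 153 in hemizygous cells. Low values implied about 2.99e+06 fragments on listed genes in the WT library and 2.98e+06 in the hemizygous library, genes outside the segments included. The nuclear genes compared held about 735000 of them in WT and 774000 in hemizygous cells. The mitochondrial mRNAs held 1.29e+06 and 1.16e+06. At a transcript length of 2000 bases, a value of 1 equals 7.26 and 7.64 fragments.

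The libraries were close to each other over most genes. The median log2 ratio of value + 1, hemizygous over WT, was 0.02, and the middle 90% of genes ran from -0.44 to 0.57. Of the 944 genes measured, 869 (92.1%) lay within 1.5-fold. A difference of 2-fold or more in either direction was found for 26 genes (2.75%), with 17 (1.8%) on the higher and 9 (0.953%) on the lower side in hemizygous cells. Most of them (12 higher, 5 lower) were gene models without a name. The share of higher genes among these, 65.4%, became 80% when both libraries were scaled to the same sum of values (equal sums below), which moved the median log2 ratio from 0.02 to 0.18. That sum runs over all listed genes, those outside the segments included, and mitochondrial mRNAs make up much of it.

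A second rule asked for a smaller fold with more support. It took genes past 1.5-fold whose value reached 5 in 1 of the libraries and whose 95% exact binomial counting interval of the plain log2 ratio excluded 0. Of 797 genes with such a value, 25 (3.14%) met it, 17 (2.13%) higher and 8 (1%) lower, and 16 of these have a gene name. The share of higher genes, 68%, was 93.2% under equal sums. Intervals here cover counting error only. The rule's edge is narrow, since Heg1 at a log2 ratio of 0.58 fell just short of it while Snx29 at 0.59 was taken.

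**Figure D1:**
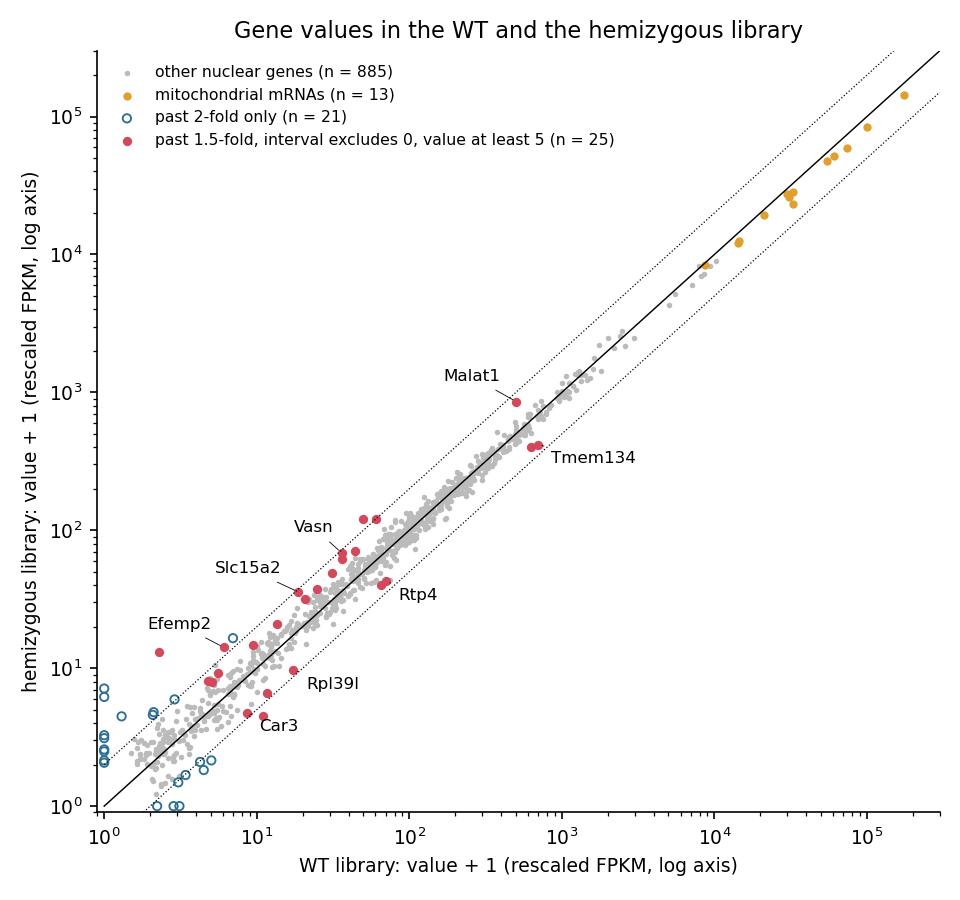
Value + 1 (rescaled FPKM, log axes) of the 944 measured genes in the WT library (x) and the hemizygous library (y), with equality as a solid line and 2-fold as dotted lines. The 13 mitochondrial mRNAs lie below the line, and most of the genes past 2-fold alone lie at the low end.

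The named genes with higher values in the hemizygous library were led by a matrix protein and a transporter. Efemp2 (ENSMUSG00000024909, chromosome 19) encodes fibulin-4, which is needed to assemble elastic fibres. It was at 5.10 in WT, 13.1 in hemizygous and 15.5 in homozygous cells, so both transgenic libraries were above WT. It was the only named gene with a value of at least 5 past 2-fold, with a log2 ratio of 1.21 (95% counting interval of the plain ratio 0.45 to 2.43) from an estimated 13.3 and 36.1 fragments. Slc15a2 (ENSMUSG00000022899, chromosome 16) encodes a proton-coupled transporter of small peptides. Its values were 17.7, 34.7 and 38.5, again with both transgenic libraries above WT, and the log2 ratio was 0.93 (0.47 to 1.49). Vasn (ENSMUSG00000039646, chromosome 16) encodes vasorin, a membrane protein that binds TGF-beta. It was at 35.1 in WT, 67.6 in hemizygous and 52.1 in homozygous cells, highest in the hemizygous one, with a log2 ratio of 0.93 (0.70 to 1.20).

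Because the transgene concerns an enzyme of CG methylation, the promoter letters of these genes are shown beside those of Rpl39l. That gene has the second lowest ratio among the named genes past the 1.5-fold rule. Each window is 300 bases from RefSeq (GRCm38.p6), from 250 bases before to 50 after a start site, written 5′ to 3′ on the strand of the gene, with each CG in capitals. Where a gene has several windows, the one with the most CG is given.
Efemp2, chr19:5474485-5474784, plus strand: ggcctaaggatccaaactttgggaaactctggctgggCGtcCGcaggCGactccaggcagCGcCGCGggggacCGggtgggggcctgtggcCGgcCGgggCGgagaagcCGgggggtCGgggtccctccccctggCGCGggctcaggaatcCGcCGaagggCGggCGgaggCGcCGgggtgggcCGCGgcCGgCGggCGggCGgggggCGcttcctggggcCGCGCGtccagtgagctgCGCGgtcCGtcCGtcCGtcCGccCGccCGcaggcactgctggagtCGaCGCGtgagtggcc
Slc15a2, chr16:36784913-36785212, minus strand: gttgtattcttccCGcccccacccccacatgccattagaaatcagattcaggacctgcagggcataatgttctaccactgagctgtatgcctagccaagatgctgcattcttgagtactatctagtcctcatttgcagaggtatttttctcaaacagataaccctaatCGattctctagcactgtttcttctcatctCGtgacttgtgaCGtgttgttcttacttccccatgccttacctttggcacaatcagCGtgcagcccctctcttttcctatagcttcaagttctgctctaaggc
Vasn, chr16:4639695-4639994, plus strand: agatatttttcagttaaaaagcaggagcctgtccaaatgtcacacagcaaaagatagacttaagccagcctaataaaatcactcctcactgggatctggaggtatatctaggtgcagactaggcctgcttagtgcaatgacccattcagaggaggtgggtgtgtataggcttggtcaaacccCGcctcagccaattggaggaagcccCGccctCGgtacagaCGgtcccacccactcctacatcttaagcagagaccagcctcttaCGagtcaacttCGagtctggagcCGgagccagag
Rpl39l, chr16:10169978-10170277, plus strand: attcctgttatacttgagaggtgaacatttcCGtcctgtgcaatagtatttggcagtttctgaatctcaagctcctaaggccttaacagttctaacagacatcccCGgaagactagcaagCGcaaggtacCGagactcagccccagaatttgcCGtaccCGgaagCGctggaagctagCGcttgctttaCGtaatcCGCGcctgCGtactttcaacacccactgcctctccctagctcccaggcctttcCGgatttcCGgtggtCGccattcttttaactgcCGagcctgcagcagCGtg

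The windows differ widely in CG content, a motif that reads the same on both strands. The Efemp2 window holds 41 CG, and 3.46% of the 32851 RefSeq windows hold as many or more. Those of Slc15a2 and Vasn hold 5 and 7, which 62.0% and 52.1% of windows reach, and that of Rpl39l holds 17, which 31.4% reach. These shares count every single window, whereas the Efemp2 window is the richest of 3. They do not place the genes among the measured genes. A comparison over all genes was void, because a window was matched for 77.5% of the 738 protein-coding nuclear genes, and methylation was not measured in these files.

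Signalling and immune genes were among the other higher genes. Ccl25 (chromosome 8) encodes a chemokine that draws T cell progenitors to the thymus, and was at 35.4 in WT, 60.9 in hemizygous and 42.4 in homozygous cells. Its log2 ratio was 0.77 (0.43 to 1.13). Casp4 (chromosome 9), the caspase that senses bacterial lipopolysaccharide inside cells, was at 30.2, 47.7 and 40.5 (0.64, interval 0.25 to 1.07). In both genes the hemizygous library had the highest value of the 3.

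Cers4 (chromosome 8), a ceramide synthase, is the next named gene after Ccl25 in chromosome order. It was at 43.2 in WT, 69.6 in hemizygous and 77.1 in homozygous cells, a log2 ratio of 0.68 (0.51 to 0.87) with its counting interval clear of 0. The genes measured on either side of this pair were level, with log2 ratios of -0.05 for both Elavl1 and Zfp958. These neighbours were looked up after the values were seen.

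Malat1, a long noncoding RNA kept in the nucleus that associates with splicing factors, was the most abundant of the higher genes. Its values were 503 in WT, 854 in hemizygous and 467 in homozygous cells, so the hemizygous library alone stood high, with a log2 ratio of 0.76 (0.64 to 0.89). Neat1, another nuclear RNA from the same stretch of chromosome 19, was at 89.4, 96.4 and 88.4, and its interval of -0.04 to 0.26 included 0.

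Of the remaining higher genes, Slc7a4, a membrane protein of the cationic amino acid transporter family, was at 4.58 in WT and 8.26 in hemizygous cells (0.73, interval 0.16 to 1.56). Zdhhc23, a palmitoyltransferase, was at 8.46 and 13.8 (0.64, interval 0.11 to 1.29), and Dnajc28, a J-domain protein, at 12.6 and 19.9 (0.62, interval 0.30 to 1.05). Snx29, a sorting nexin, was at 23.9 and 36.4 (0.59, interval 0.29 to 0.93). In the homozygous library these 4 genes stood at 5.38, 10.2, 14.1 and 24.9, between the other libraries in every case.

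The 5 named genes with lower values have unlike roles. Tmem134 (ENSMUSG00000024845, chromosome 19), named for a membrane protein, had by far the most fragments. The gene annotation used here lists it as a processed transcript, so counts of protein-coding genes leave it out. It was at 697 in WT, 418 in hemizygous and 416 in homozygous cells, and its log2 ratio of -0.74 (-0.84 to -0.64) rested on an estimated 2182 and 1376 fragments. Both transgenic libraries were at nearly the same lower value.

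Rtp4 (chromosome 16), an interferon-induced chaperone of membrane receptors, was at 69.5 in WT, 41.8 in hemizygous and 71.8 in homozygous cells, so the hemizygous library alone was low. Its log2 ratio was -0.72 (-1.02 to -0.45). Car3, a carbonic anhydrase of muscle and fat on chromosome 3, followed the same order of libraries, with 7.59, 3.76 and 7.74 and a log2 ratio of -0.85 (-1.92 to -0.20). The other carbonic anhydrase genes of the segment were near level, with values of 64.7 and 65.0 for Car1, the erythroid form, 2200 and 2091 for Car2, and 23.7 and 23.3 for Car13.

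Rpl39l, which encodes a ribosomal protein like Rpl39, differed between all libraries, at 16.4 in WT, 8.74 in hemizygous and 4.47 in homozygous cells. Its log2 ratio was -0.84 (-1.82 to -0.03) from an estimated 31.6 and 17.7 fragments. Fcor, a corepressor of the transcription factor Foxo1, was at 63.9, 38.9 and 54.2 (-0.70, interval -1.41 to -0.05). For both genes the interval came close to 0.

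**Figure D2:**
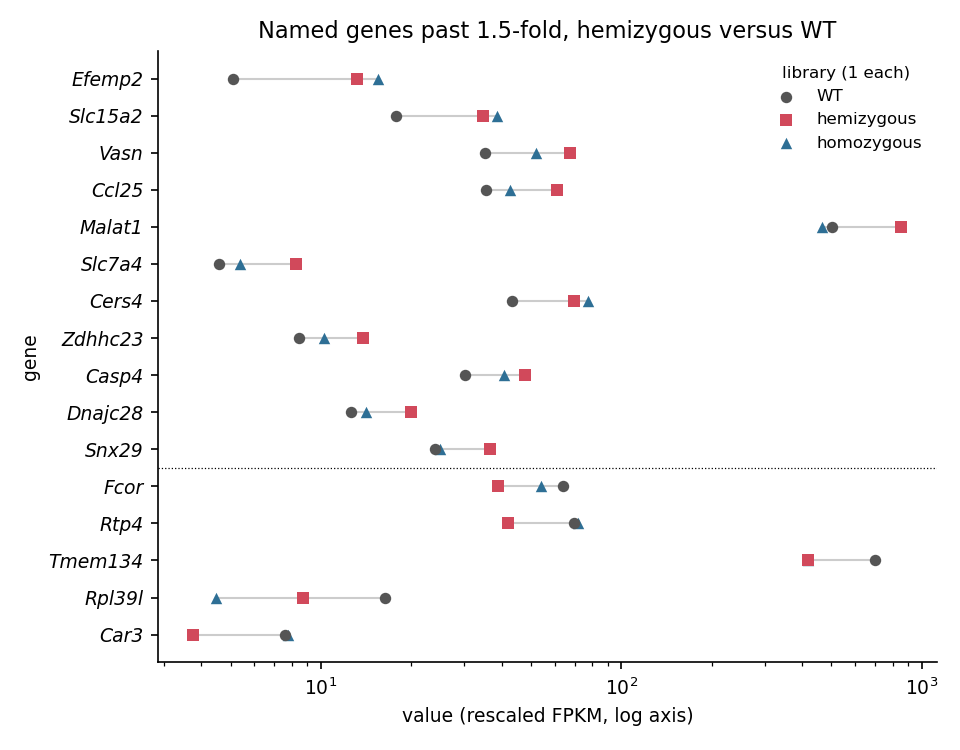
Values (rescaled FPKM, log axis) of the 16 named genes past the 1.5-fold rule in the WT, hemizygous and homozygous library, 1 library each. Genes above the dotted line were higher and genes below it lower in the hemizygous than in the WT library. For Malat1, Snx29, Rtp4 and Car3 the homozygous value lies next to the WT value, and for Tmem134 it coincides with the hemizygous one.

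Among genes under the naming minimum, Fbxo40, a substrate adaptor of ubiquitin ligases known from muscle, had the largest log2 ratio (1.78). It was at 0.30 in WT, 3.48 in hemizygous and 1.43 in homozygous cells. The plain ratio was 11.6-fold on an estimated 2.61 and 31.8 fragments, with a log2 counting interval of 1.66 to 5.69. It lies near Slc15a2 on chromosome 16, and the genes around them differed unequally. Ildr1, next to Slc15a2, was at 0.49 and 1.43, a plain ratio of 2.90 on few fragments (5.29 and 16.1). Iqcb1, a protein of the cilium base, was at 87.2 and 116 (0.41, interval 0.12 to 0.71), and the Golgi protein Golgb1 at 41.1 and 52.2 (0.34, with an interval that included 0). Eaf2 was at 5.68 and 6.21, Hcls1 at 249 and 244 and Polq at 72.3 and 70.6.

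Other low genes past 2-fold, named after their values were seen, lay on both sides. Cldn20, a claudin of tight junctions, was higher in the hemizygous library at 1.08 and 3.59, as was the transcription factor Zbtb20 at 1.89 and 4.94, and for both the counting interval included 0. Cd248, a surface protein of stromal cells (endosialin), was lower, at 3.25 in WT, 1.09 in hemizygous and 2.09 in homozygous cells. Trat1, an adaptor of the T cell receptor complex, was at 2.06, 0.49 and 2.16, and Tsga10ip at 3.49, 0.83 and 1.83. These 3 rested on between 3.18 and 31.5 estimated fragments per library.

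The strand setting of the counting is not given in the sources used here, so reads of overlapping genes may not be told apart. Exons of Efemp2 overlap those of Mus81 on the opposite strand, those of Ccl25 overlap Elavl1 and those of Slc7a4 overlap P2rx6. Mus81 was at 133 and 117, in the other direction from Efemp2. Vasn overlaps Dnaja3 on the same strand, which was level at 262 and 263. Of the 50-base stretches of Rtp4 transcripts, 11.6% also occur in other genes, of which Gm45338 shares the most. For Vasn it was 3.89% and for Malat1 1.64%. Sharing was larger for Vpreb1 and Vpreb2, described below. Other genes hold 18.8% of the stretches of Vpreb1 and 32.8% of those of Vpreb2, and each shares the most with the other. Exons of Vpreb1 also overlap those of Top3b on the opposite strand. Top3b was at 310 in WT and 345 in hemizygous cells, in the other direction from Vpreb1.

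All 13 mRNAs of the mitochondrial genome, which encode subunits of the respiratory chain and of ATP synthase, were lower in the hemizygous library, with a median log2 ratio of -0.22. Under equal sums 10 of the 13 were lower and the median was -0.06. These mRNAs held a summed value of 648464 in WT and 541172 in hemizygous cells, of library sums of 1.14e+06 and 1.02e+06. Equal sums thus scale them largely to themselves and cannot check their difference. Under equal sums of the nuclear genes compared, all 13 were lower, with a median of -0.17. The complex I gene mt-Nd3 differed most, at 32524 in WT, 23307 in hemizygous and 17394 in homozygous cells, a log2 ratio of -0.48 (-0.51 to -0.45). The cytochrome oxidase genes mt-Co3 and mt-Co1 were at 74501 and 54410 in the WT and at 58762 and 47593 in the hemizygous library, log2 ratios of -0.34 and -0.19. The smallest difference was that of mt-Nd5, at 8730 and 8355 (-0.06), which turned to 0.10 under equal sums, where mt-Nd4 and mt-Nd4l also lay above 0. The homozygous library was below the hemizygous one for each of the 13. These mRNAs are short, from 204 bases for mt-Atp8 to 1824 for mt-Nd5. Protein-coding nuclear genes of such length were also lower, with medians of -0.15 under 1000 bases and -0.09 from 1000 to 2000 bases. The centring on transcript length described below was not applied to the mitochondrial mRNAs, so the part of length in their difference was not tested.

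**Figure D3:**
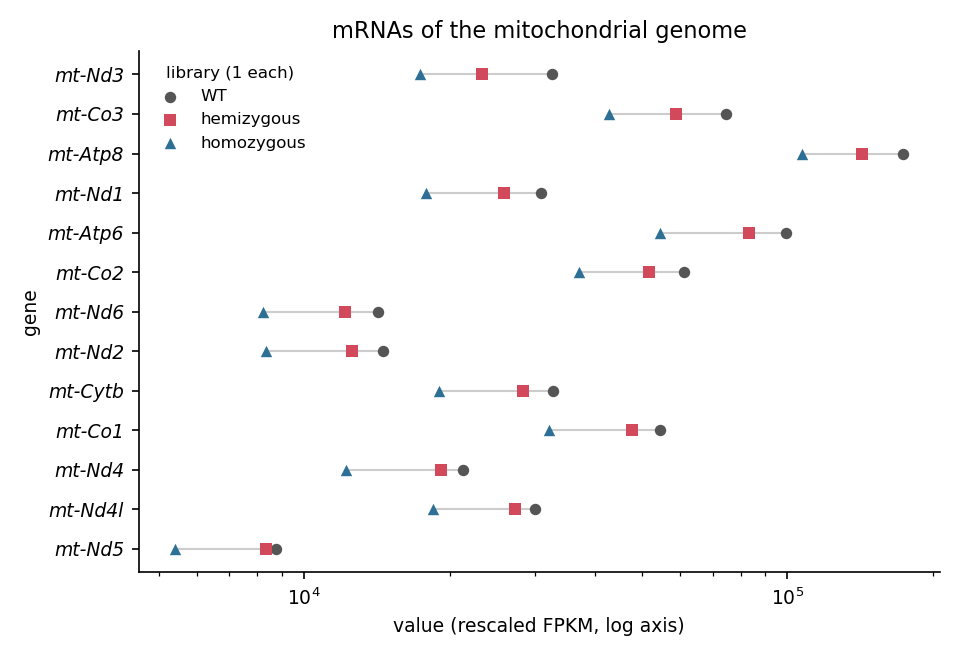
Values (rescaled FPKM, log axis) of the 13 mitochondrial mRNAs in the 3 libraries, sorted by the log2 ratio of hemizygous to WT. At the deposited scaling the WT library is highest and the homozygous library lowest in every row (10 of the 13 ratios to WT stay below 0 under equal sums), and the distance from WT to hemizygous runs from 0.48 for mt-Nd3 to 0.06 for mt-Nd5 on the log2 scale.

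Gene lists were read by a looser count, the members whose counting interval excluded 0 at any fold. Over all 944 genes that count was 292 (30.9%), with 158 (16.7%) higher and 134 (14.2%) lower. The lists hold 512 symbols, of which 307 lay on the segments and 259 were measured. Under equal sums the shares of all genes were 36.6% higher and 3.78% lower, so the list counts hold for the deposited scaling. The lists were chosen with earlier results of these data known, and the count of a list is a description. The lists share members, such as Nrip1, Cdk6 and Tfrc, so their counts are not separate.

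Of the B lymphoid genes, Vpreb1, Vpreb2, Igll1 and St6gal1 were lower in the hemizygous library. Of 6 measured members of the B lymphoid list, 4 were lower, none was higher, and the median log2 ratio was -0.29 (-0.13 under equal sums). Under equal sums 3 were lower, as the Vpreb2 interval then included 0 (-0.39 to 0.15). It also did under equal sums of nuclear genes (-0.50 to 0.04) and centred on transcript length (-0.40 to 0.14). Vpreb1, a part of the surrogate light chain of the pre-B cell receptor, was at 174 in WT, 122 in hemizygous and 57.0 in homozygous cells. Igll1, the other part of that chain, was at 236, 190.0 and 95.5, and Vpreb2 at 107, 88.3 and 39.7. St6gal1, a sialyltransferase that makes the ligand of the B cell lectin CD22, was at 48.2, 36.9 and 19.4. In all 4 the hemizygous value lay between the others, though Vpreb1 and Vpreb2 share sequence and their counts may not be separate. The log2 ratios to WT were -0.51 for Vpreb1, -0.38 for St6gal1, -0.31 for Igll1 and -0.28 for Vpreb2, short of 1.5-fold. Bcl6 and Btla, which act later in B cells, had intervals that included 0. The summed value of the 9 list members on the segments was 607 in WT and 477 in hemizygous cells. Fewer cells of a type and less RNA per cell cannot be told apart in a bulk sample. Cd79a, Rag1 and Il7r lay outside the segments and were not analysed here.

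Chromatin genes were higher more often than lower. Of 15 measured, 7 were higher and 1 was lower, with a median of 0.11. Crebbp, a histone acetyltransferase, was at 43.2 in WT, 62.5 in hemizygous and 47.8 in homozygous cells, a log2 ratio of 0.52 (0.32 to 0.75). Asxl2, a partner of the deubiquitinase that acts on histone H2A, was at 94.0, 132 and 128 (0.48, interval 0.39 to 0.59). Suv420h1, a histone H4 methyltransferase, was at 101, 131 and 118 (0.38), and the H3 demethylase Kdm2a, which binds unmethylated CG, at 272, 343 and 344 (0.33). Dnmt3a, the other de novo DNA methyltransferase, was at 603 and 698 (0.21, interval 0.11 to 0.31). Banf1, a small DNA-bridging protein of the nuclear envelope, was the lower one, at 2967 and 2488 (-0.25).

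Transcription factors of blood cells ran the same way, with 4 of 12 higher, none lower and a median of 0.15. Nrip1, a corepressor of nuclear hormone receptors, was at 80.2 in WT, 119 in hemizygous and 106 in homozygous cells, a log2 ratio of 0.56 (0.41 to 0.72). Gabpa, an ETS factor needed by blood stem cells, was at 178, 226 and 198 (0.34), and Zeb1 at 45.2, 56.1 and 50.03 (0.31). Growth and cAMP signalling had the largest share of higher genes among the lists, 9 of 15 higher and 1 lower, with a median of 0.16. Cdk6, the cyclin-dependent kinase whose level sets how readily blood stem cells leave rest, was at 125, 173 and 165 (0.47), and the adenylyl cyclase Adcy3 at 21.1, 31.0 and 33.9 (0.53). Rcan1, an inhibitor of calcineurin, was the lower one, at 51.3 and 40.7 (-0.33).

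Genes of ribosomes ran the other way. Of 9 measured members of the cytosolic ribosome and translation list, 5 were lower and 2 higher, with a median of -0.18. Under equal sums 1 was lower, 2 were higher and the median was -0.02. Mrpl40 (-0.18), of the mitochondrial ribosome, was among the 5 lower ones and is counted also with the nuclear genes of mitochondrial proteins. Rpl24 was at 1111 in WT, 907 in hemizygous and 964 in homozygous cells (-0.29), and Fau, which encodes a ribosomal protein joined to a ubiquitin-like one, at 9340, 8269 and 8107 (-0.18). The initiation factor Eif4a2 was higher, at 2490 and 2782 (0.16). Of 20 nuclear genes of mitochondrial proteins, 7 were lower and 2 higher, which under equal sums became 0 and 6, and their median of -0.08 became 0.08. Mrpl39 and Mrps6, of the mitochondrial ribosome, were at 20.01 and 14.1 (-0.48) and at 143 and 110 (-0.37). The mitochondrial thioredoxin reductase Txnrd2 was higher, at 98.7 and 124 (0.33).

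DNA replication genes divided, with 6 of 13 lower and 3 higher and a median of -0.02, while under equal sums 1 was lower, 5 were higher and the median was 0.13. Rnaseh2c, a subunit of the enzyme that removes ribonucleotides from DNA, was at 1810 in WT and 1418 in hemizygous cells (-0.35), and the clamp loader gene Rfc4 at 222 and 185 (-0.26). Among repair genes 6 of 14 were higher and 1 was lower. They included Prkdc, the catalytic subunit of DNA-dependent protein kinase, at 10.8 and 14.6 (0.40). Centred on transcript length, as described below, the repair genes counted 3 higher and 2 lower, and Prkdc lay at 0.17 with an interval that included 0. The splicing list had 4 of 12 higher, among them Sf1, a branch point binding protein, at 1741 and 2189 (0.33), and 1 lower.

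Counts of the other blood and immune lists differed, and are read beside the 16.7% higher and 14.2% lower of all genes measured. Of 14 myeloid genes, Casp4 was higher, and Cd86, a costimulatory ligand, was lower at 81.3 in WT and 59.9 in hemizygous cells (-0.43), as was BC100530, a stefin gene. Of 11 interferon genes none was higher and 3 were lower (5 higher and 2 lower under equal sums). The lower ones were Rtp4, the interferon-gamma receptor chain Ifngr2 at 110 and 86.4 (-0.34), and Unc93b1 (-0.16). Of 7 erythroid and iron genes 2 were higher and 2 lower, and Tfrc, the transferrin receptor, was at 1280 and 1414 (0.14). None of 5 platelet and coagulation genes and none of 4 Notch genes had an interval that excluded 0.

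Lists of general cell functions were counted in the same way. Of 23 ubiquitin and proteasome genes 7 were higher and 4 lower, with Senp5, a SUMO protease, at 62.1 in WT and 82.9 in hemizygous cells (0.41). The counts were 4 higher and 3 lower of 15 for lysosome and endosome and 3 and 0 of 13 for transporters, where Slc15a2, Slc7a4 and the drug exporter Abcc1 (0.17) were the higher ones. Of 11 glycosylation genes 3 were lower, St6gal1 among them, and the higher one was Alg3, a mannosyltransferase of the endoplasmic reticulum, at 79.6, 114 and 74.1 in the 3 libraries (0.51, interval 0.31 to 0.72). Lipid metabolism had 1 higher and 3 lower of 9, immune surface receptors 1 and 2 of 19, and NF-kB and cell death 1 and 0 of 10. Cfl1, the actin-severing protein cofilin and the most abundant nuclear gene measured, was at 10185 and 9022 (-0.17).

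Genes of cells other than LSK cells were looked at beside Efemp2. Of 14 vessel wall and matrix genes, Efemp2 and Heg1 were higher, none was lower, and the median was 0.22. The median of the longest transcript over these genes was 5596.5 bases. Centred on transcript length, as described below, 2 were higher and 1 was lower, and the median stayed at 0.22. The summed value of the 16 list members on the segments was 244 in WT, 328 in hemizygous and 338 in homozygous cells, and no member was at 0 in both WT and hemizygous. The basement membrane genes Col4a1 and Col4a2 were at 25.5 and 31.7 and at 27.1 and 36.4, with intervals that included 0, and the endothelial gene Cldn5 was at 1.63 and 1.93. The part of other cell types in the Efemp2 difference was not tested. Of 9 hepatocyte genes on the segments 2 reached a value of 1, and Ahsg, a secreted protein of hepatocytes, was at 3.70 in WT and 3.49 in hemizygous cells. Of 31 germline and tissue-restricted genes on the segments, many of which are silent in blood, 27 did not reach a value of 1 in either library.

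**Figure D4:**
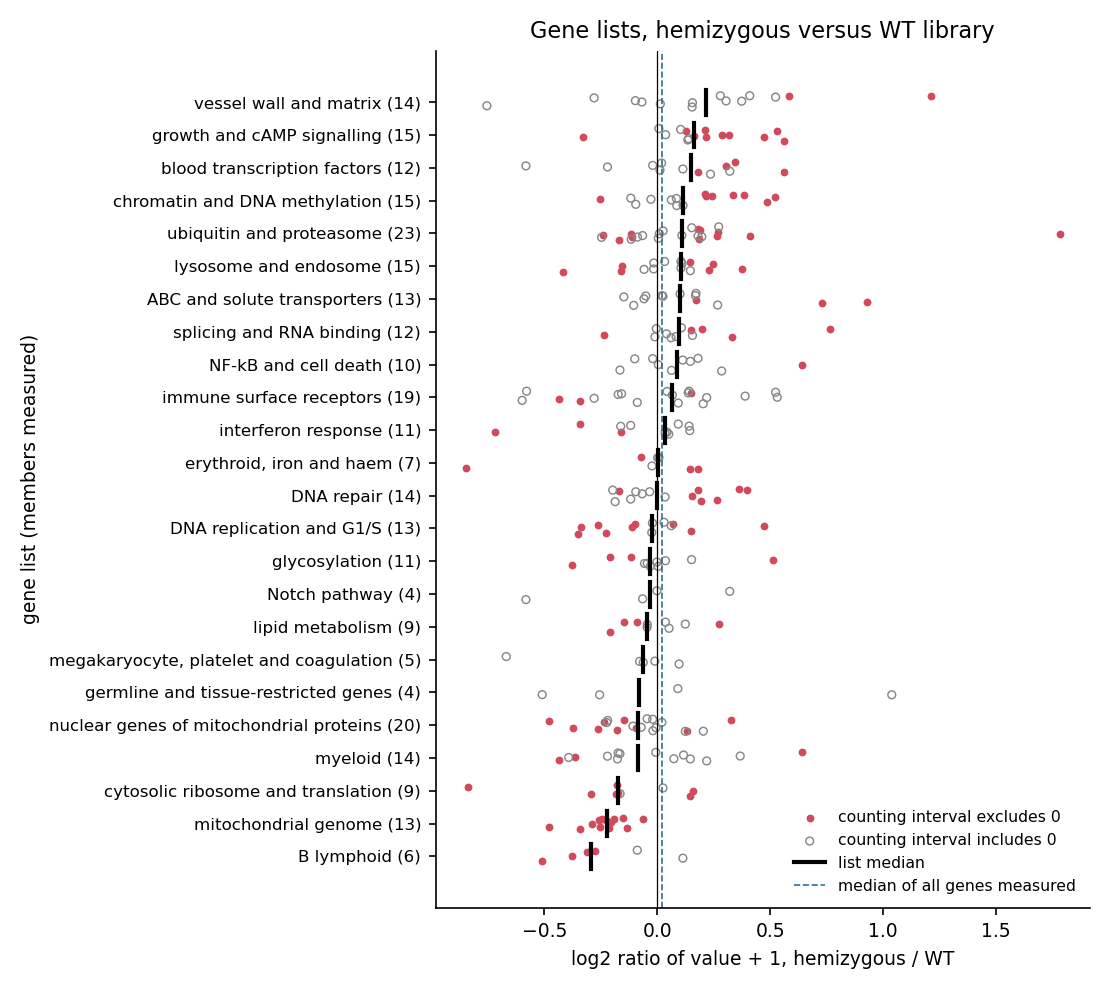
Log2 ratio of value + 1, hemizygous over WT, of the measured members of gene lists, the number of them in parentheses (a point is a gene, filled where its counting interval excludes 0), with the list median as a bar. The B lymphoid list (-0.29) and the mitochondrial genome (-0.22) have the lowest medians drawn and the vessel wall list (0.22) the highest, and most single genes lie between -0.5 and 0.5.

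The ratio moved with transcript length, and the lists differ in it. The median of the longest annotated transcript was 6323 bases over the measured growth and cAMP signalling genes, 4218 over chromatin genes and 2029 over nuclear genes of mitochondrial proteins. Among protein-coding nuclear genes with a value of at least 5, those with a longest transcript under 1000 bases had a median log2 ratio of -0.15 (n = 30), which was 0.01 under equal sums. From 1000 to 2000 bases it was -0.09 (n = 90, 0.07 under equal sums), from 2000 to 4000 bases 0.00 (n = 279), from 4000 to 8000 bases 0.10 (n = 205), and from 8000 bases 0.23 (n = 42). Equal sums lifted all classes and left their order. Of the shortest class 16 genes were lower and 1 higher by the counting interval, and of the longest 1 was lower and 22 higher.

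Several genes described above stand at the ends of this order. Crebbp, Asxl2, Cdk6, Prkdc, Kdm2a, Dnmt3a and Cers4 have transcripts of over 8000 bases, as has Heg1, a receptor of endothelial cells, at 67.6 in WT, 102 in hemizygous and 82.1 in homozygous cells. Rpl39l, Fcor, Vpreb1, Vpreb2 and Fau are in the shortest class, as is Snrpd1, a core spliceosome protein, at 1231 and 1038 (-0.25). Genes of great length that were not higher include Pfkp, a phosphofructokinase, at 35.7 and 30.2 (-0.24), and Akap9, a scaffold of the Golgi and centrosome, at 119 and 119 (-0.01). The order held on chromosome 16 (medians -0.18, -0.07, -0.01, 0.10 and 0.25) and off it (-0.15, -0.10, 0.01, 0.11 and 0.21). It did not hold throughout among genes with a single transcript, whose length is not in doubt but which are few. Their medians were -0.09 (n = 9), -0.13 (n = 11), 0.02 (n = 19), 0.02 (n = 6) and -0.04 (n = 1).

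With the homozygous library in place of the hemizygous one, and the same WT library, the class medians were -0.14, -0.08, -0.06, 0.03 and 0.10. By the median instead of the longest transcript of each gene the order was flatter, from -0.01 under 1000 bases to 0.07 between 4000 and 8000 bases. In an alternative added after the data were seen, each nuclear gene was centred on the median of its length class. Chromatin genes then counted 4 higher and 2 lower of 15, and growth and cAMP signalling 3 and 2 of 15. The B lymphoid list counted 0 higher and 3 lower of 6. Under that centring the interval excluded 0 for 12.3% of all genes as higher and 13.1% as lower. Blood transcription factors went to 2 higher and 0 lower of 12, splicing to 3 and 3 of 12, and ubiquitin and proteasome to 6 and 8 of 23. Ribosome and translation went to 1 higher and 2 lower of 9, nuclear genes of mitochondrial proteins to 1 and 4 of 20, and replication to 2 and 5 of 13. Dnmt3a then lay at -0.02, Kdm2a at 0.10, Crebbp at 0.29 and Vpreb1 at -0.36. Slc15a2, Vasn and Efemp2 belong to the class from 2000 to 4000 bases, whose median was 0.00, so centring does not bear on them.

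**Figure D5:**
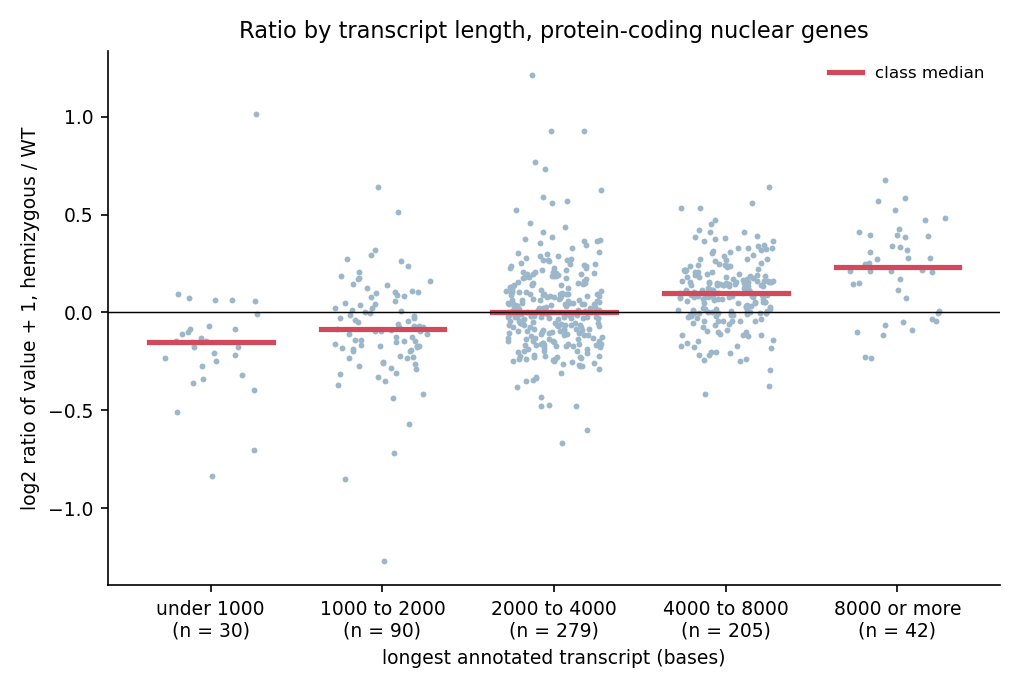
Log2 ratio of value + 1, hemizygous over WT, of protein-coding nuclear genes with a value of at least 5 (points), by class of the longest annotated transcript (bases), with the class median as a bar. The medians go from -0.15 under 1000 bases (0.01 under equal sums) to 0.23 at 8000 bases or more, while single genes of each class spread over a wider range.

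Gene types differed as well. Antisense models had a median log2 ratio of 0.28 (n = 51) and long intergenic RNAs of 0.21 (n = 24), against 0.03 for protein-coding genes (n = 738) and -0.09 for processed pseudogenes (n = 93), the last within the shift of 0.16 that equal sums bring. The antisense models were low, with a median value of 3.91 in WT and 5.56 in hemizygous cells, against 71.7 and 73.4 for protein-coding genes. The largest of them was Gm15738, named after its values were seen, at 1.28 in WT, 12.1 in hemizygous and 2.68 in homozygous cells on an estimated 1.17 and 11.7 fragments (log2 interval of the plain ratio 0.75 to 8.93). Processed pseudogenes share sequence with their parent genes, so reads counted there are uncertain in origin.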

How the data were processed

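The 3 libraries were deposited as tables of FPKM per gene with the state of each estimate, per the file headers. Each pools embryos of 1 genotype, per the labels' protocols. The submitters' processing notes list TopHat2, Bowtie2, Cufflinks and the mm9 build with no versions. The deposited FPKM add up to between 3.58e+09 and 4.83e+09 per library, more than the unit allows, so all were divided by 1 common factor, which leaves ratios as deposited. Segments end at Morc3 (16), Rasgrp2 (19), Agpat5 (8), Mib1 (18), Dmtf1 (5), Car2 (3), Zmynd11 (13), Birc3 (9), Dynlt1f (17) and Cenpo (12), each on the chromosome in parentheses, in the gene order of the GENCODE M21 annotation of GRCm38. That build differs from mm9, so no positions are printed other than those of the promoter windows, which are of GRCm38.p6.

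Ratios are log2 of value + 1, which understates changes of low genes. Low FPKM times transcript length, less an assumed fragment length of 200 bases, fell within 0.05 of whole multiples of a unit for 71.2% of 816 low values (WT), 69.5% of 889 (hemizygous) and 71.6% of 832 (homozygous). That unit was taken as 1 fragment, so fragments and intervals are approximate. With longest instead of median transcripts the totals were 5.66e+06, 5.91e+06 and 4.79e+06 fragments. Intervals are exact binomial at 95% (SciPy 1.17.1, pandas 2.3.3), tested on simulated data, and were centred on the deposited scaling.

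Named were genes past 2-fold with a value of at least 5, the 12 highest and 12 lowest past the 1.5-fold rule (11 and 5 existed), mitochondrial mRNAs, members of the lists and the 10 most abundant nuclear genes. The members, lists and rules were chosen with earlier results of these data known. A few items are not reported here. There were 11 alternatives, of which 10 were planned.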

Additional observations from a re-analysis of the deposited data

How the results depend on the processing

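With 1 library per genotype no spread between embryos or preparations was measured. No paired analysis was possible because each genotype had 1 library. None of the 16 named genes past the 1.5-fold rule changed sign in an alternative, while medians of several lists and 3 mitochondrial mRNAs did under equal sums of all genes. Genes past 2-fold numbered 43 (27 higher, 16 lower) with a pseudocount of 0.1, 4 (4 higher, 0 lower) with 5, 8 (7 higher, 1 lower) at a minimum value of 5 and 14 (8 higher) on chromosome 16 with the mitochondrial mRNAs alone, where fewer genes were counted. Genes past the 1.5-fold rule numbered 44 (41 higher, 3 lower) under equal sums of all genes, 15 (9 higher) with a pseudocount of 5 and 12 (8 higher, 4 lower) on chromosome 16. Centring on the length class, chosen after seeing the data, left 5 lower. The share within 1.5-fold was 89.2% under equal sums, 89.0% and 97.7% with pseudocounts of 0.1 and 5, and 95.2% at a minimum of 5. The mitochondrial median was -0.0617 under equal sums and -0.17 under equal sums of nuclear genes. Equal sums gave list medians of 0.13 for replication, 0.0762 for nuclear genes of mitochondrial proteins, -0.0156 for ribosome and translation, 0.25 for splicing and 0.27 for ubiquitin and proteasome. Efemp2, Slc15a2, Vasn, Malat1 and Ccl25 passed the 1.5-fold rule in every alternative that held their chromosome. It was missed by Rtp4 (-0.56), Tmem134 (-0.58), Fcor (-0.55) and Rpl39l (-0.69) under equal sums, by Rpl39l (-0.79) also under equal sums of nuclear genes, by Cers4 (0.44), Zdhhc23 (0.54), Fcor and Rpl39l when centred on length, by Snx29 (0.56) under median-ratio scaling, and by Car3, Casp4, Dnajc28, Slc7a4, Snx29 and Zdhhc23 with a pseudocount of 5. Depth limits genes with a value under about 5, where single fragments move the ratio.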
